A study of Mus musculus with 8 samples.

Results

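The genes described here are the 3 TGF-beta ligands, a pair of TGF-beta receptors and the 4 latent TGF-beta binding proteins of mouse tibialis anterior (TA) muscle. They are Tgfb1, Tgfb2, Tgfb3, Tgfbr2, Tgfbr3, Ltbp1, Ltbp2, Ltbp3 and Ltbp4, chosen by name, and all 9 were among the 12551 genes with counts. RNA sequencing was performed on whole TA muscles of 4 WT and 4 KL-/- mice, all male and aged 7 weeks, and the litters are not given in the sources used here. The study asked how loss of Klotho, a protein made mainly in the kidney that also circulates, affects skeletal muscle. KL-/- mice carry a null Klotho allele in every tissue on a mixed background, so muscle is not the only organ without the protein. Kl itself was not analysed here, and the genotype of each library was taken from the sample records. The study genotyped its mice by PCR and reported neither Kl mRNA nor Klotho protein as detectable in KL-/- muscle.

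TGF-beta is secreted in a latent form, held in its own propeptide and tied to the extracellular matrix by a latent TGF-beta binding protein. Integrins and proteases release the ligand, which binds the type II receptor. That receptor engages the type I receptor, and SMAD proteins carry the signal to the nucleus. In skeletal muscle this pathway is known for driving fibroblasts to deposit matrix and for restraining the differentiation of muscle progenitors.

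Each library held 20860262 to 29273758 counted reads, with medians of 24393616 in WT and 26521005 in KL-/-. Levels are CPM, which are counts scaled to library size after TMM adjustment, given as mean ± SD with n = 4 per genotype, and a log2 fold change is KL-/- over WT. A false discovery rate (FDR) under 0.05 over all genes in edgeR's quasi-likelihood test was required to call a difference. The myofibre markers, all 8 counted, summed to 145965 to 165688 CPM in WT and 173008 to 210385 CPM in KL-/-. Among them Ryr1 alone was called. Mean Myh4 was 35287 CPM in WT and 48545 CPM in KL-/-, while Myh1, the only marker lower, had 18538 and 14976 CPM. KL-/- replicate 3 alone carries another batch date, so that batch and that mouse cannot be told apart. In whole muscle, fewer cells of a type and less RNA per cell cannot be told apart.

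None of the 9 genes passed the test, against 14.0% of all genes (1759 of 12551), with 7.35% of all genes called higher and 6.67% lower in KL-/-. The DESeq2 and likelihood ratio tests each called 1 of the 9, which was Ltbp1 (adjusted p = 0.0334 and 0.0432), against 19.6% and 16.9% of all genes. At an unadjusted p under 0.05 there were 3, Tgfb1, Ltbp1 and Ltbp4, against 32.1% of all genes. For none of the 9 did the libraries of the genotypes separate without overlap, against 19.7% of all genes (9.47% with KL-/- lower). The log2 fold change was below 0 for 8 of the 9, against 52.4% of all genes, and the median of the 9 was -0.20 against -0.016 over all genes. The 9 values come from the same 8 libraries and are not independent.

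**Figure D1:**
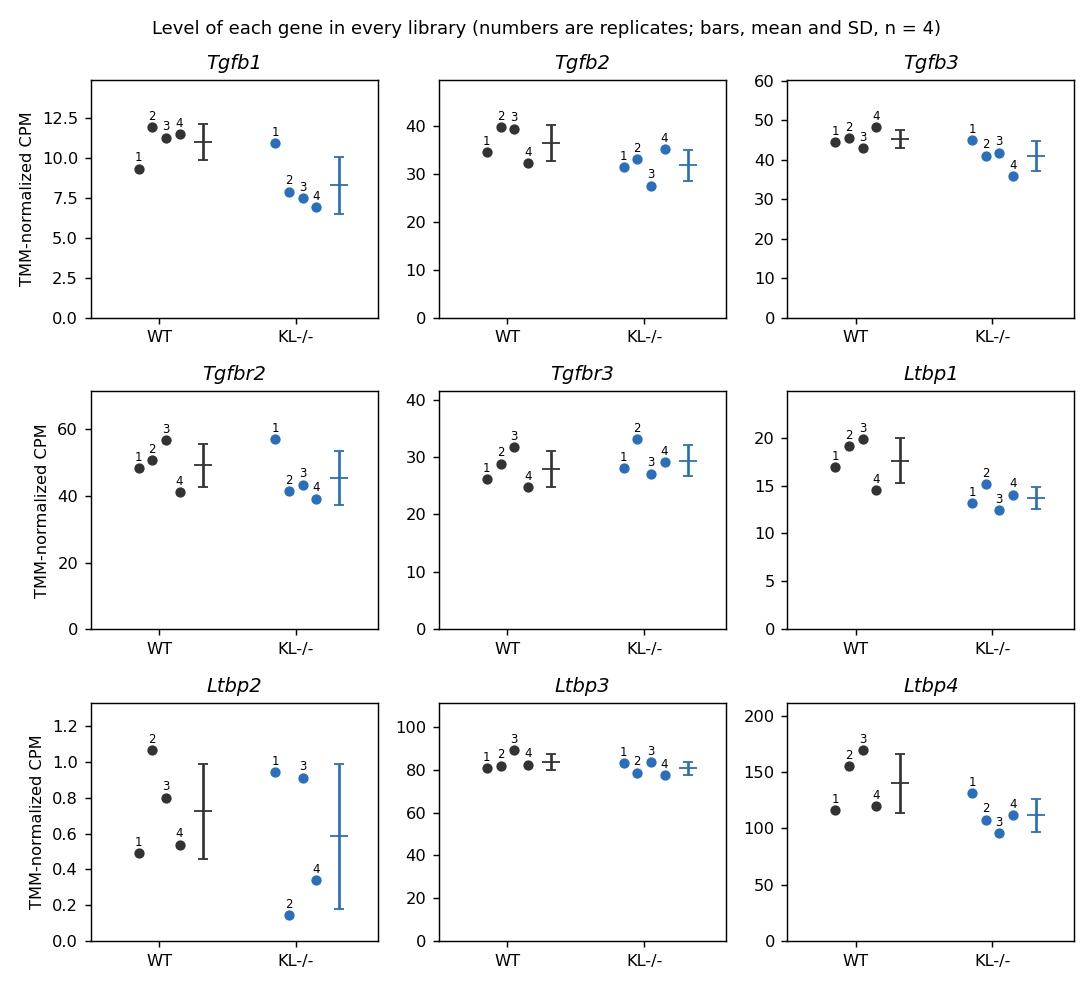
Level of each of the 9 genes in every library, in CPM, with WT and KL-/- side by side and the mean and SD of 4 libraries marked. The libraries of the genotypes overlap for every gene, and Ltbp4 is the highest and Ltbp2 the lowest in CPM.

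Promoter sequence is shown for Tgfb1, Ltbp1 and Ltbp4, the genes whose 95% interval left out 0 before adjustment. Each line gives the 150 bases before a RefSeq start on mm10, 5′ to 3′ on the strand of the gene, with motif matches in capitals.
Tgfb1, chr7:25686852-25687001, plus strand: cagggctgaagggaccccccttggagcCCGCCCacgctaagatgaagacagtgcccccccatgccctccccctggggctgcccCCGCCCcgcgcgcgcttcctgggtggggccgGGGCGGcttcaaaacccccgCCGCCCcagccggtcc
Ltbp1, chr17:75005379-75005528, plus strand: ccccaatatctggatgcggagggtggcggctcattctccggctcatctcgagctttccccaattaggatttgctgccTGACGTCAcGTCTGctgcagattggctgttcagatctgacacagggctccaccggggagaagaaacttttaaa
Ltbp4, chr7:27337613-27337762, minus strand: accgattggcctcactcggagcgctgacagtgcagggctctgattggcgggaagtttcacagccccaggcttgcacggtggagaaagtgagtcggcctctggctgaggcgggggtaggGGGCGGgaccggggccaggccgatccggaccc
Capitals in Tgfb1 and Ltbp4 mark the GC box (GGGCGG or CCGCCC), which 32.7% of the 32851 mouse windows of 250 upstream bases hold. In Ltbp1 they mark the cyclic AMP response element TGACGTCA, held by 1.55% of windows, and the SMAD box (CAGAC or GTCTG), held by 42.2%. Ltbp1 has another RefSeq start, whose 250 bases hold no TGACGTCA, and Ltbp4 has 2 more, whose windows overlap each other and hold 5 and 7 GC boxes. The bases after either RefSeq start of Ltbp1 were not found in a reference transcript of the gene, while those of the other windows were. The AP-1 site and the E-box were also searched, over 10 windows in all. A match describes the letters only. Windows were found for 7 of the 9 genes, and Tgfb3 and Tgfbr3 had none.

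Tgfb1, the ligand made by immune cells and fibroblasts among others, lies on chromosome 7 from 25687002 to 25704996 (mm10, plus strand) and was counted over 7 exon blocks. It measured 9.31, 11.9, 11.2 and 11.5 CPM in WT and 10.9, 7.87, 7.46 and 6.90 CPM in KL-/-. KL-/- replicate 1 stood among the WT libraries, and the other 3 KL-/- libraries were below every WT library. Mean levels were 10.98 ± 1.15 CPM in WT and 8.28 ± 1.78 CPM in KL-/-. The log2 fold change was -0.40 (SE 0.1503, 95% interval -0.74 to -0.067, adjusted p = 0.1001). Without KL-/- replicate 1 it was -0.56 with an adjusted p of 0.0254.

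Tgfb2 lies on chromosome 1 (186623186 to 186705992, minus strand) and Tgfb3 on chromosome 12 (86056743 to 86079041, minus strand). Both are ligands with known roles in the development of the heart, palate and other organs. Tgfb2 measured 34.5, 39.8, 39.5 and 32.2 CPM in WT and 31.5, 33.1, 27.6 and 35.2 CPM in KL-/-. Its log2 fold change was -0.20 (SE 0.0969, adjusted p = 0.193), and the ranges overlapped. Tgfb3 was the highest of the ligands in CPM, with a mean of 45.2 ± 2.20 for WT and 40.9 ± 3.71 for KL-/-. Its log2 fold change was -0.15 (SE 0.0764, adjusted p = 0.219), and KL-/- replicate 1 again lay within the WT range. Genes annotated on the opposite strand overlap 2.69% of the exon bases of Tgfb2, and 4.82% and 7.59% of those of Tgfb3, and use of strand in the counting is not given in the sources used here.

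Tgfbr2, the type II receptor that binds the ligand, lies on chromosome 9 (116087695 to 116175363, minus strand). It measured 48.3, 50.6, 56.8 and 41.1 CPM in WT and 57.1, 41.4, 43.4 and 39.2 CPM in KL-/-. The highest and the lowest of the 8 libraries were both KL-/-, and the log2 fold change was -0.12 (95% interval -0.42 to 0.18, adjusted p = 0.561). Tgfbr3, or betaglycan, is a co-receptor that presents ligand, TGF-beta 2 above all, to the type II receptor. It lies on chromosome 5 (107106570 to 107289595, minus strand) and measured 27.9 ± 3.10 CPM in WT and 29.4 ± 2.66 CPM in KL-/-. Its log2 fold change of 0.074 (95% interval -0.14 to 0.29, adjusted p = 0.629) was the only one of the 9 above 0 and turned to -0.045 when library totals replaced TMM factors.

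**Figure D2:**
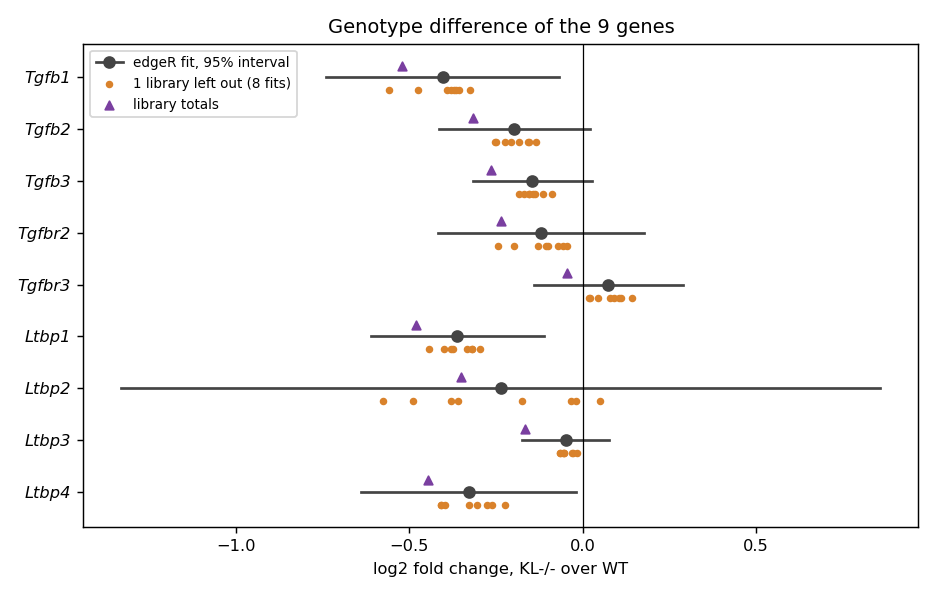
Log2 fold change (KL-/- over WT) of the 9 genes with its 95% interval from the edgeR fit on 4 libraries per genotype, with orange points for fits with 1 library left out and triangles for library totals. The intervals of Tgfb1, Ltbp1 and Ltbp4 lie below 0, and that of Ltbp2 runs from -1.33 to 0.86.

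Ltbp1, which ties latent TGF-beta to fibronectin and fibrillin in the matrix, lies on chromosome 17 (75005529 to 75392967, plus strand). It measured 16.9, 19.1, 19.9 and 14.6 CPM in WT and 13.2, 15.1, 12.5 and 14.1 CPM in KL-/-. KL-/- replicate 2 was above WT replicate 4, and otherwise the KL-/- libraries were lower. The log2 fold change was -0.36 (SE 0.111, 95% interval -0.61 to -0.11, adjusted p = 0.0583), the lowest adjusted p of the 9. It was 0.0272 without WT replicate 4 and 0.0440 without KL-/- replicate 2.

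Ltbp4, a partner of fibulins in elastic fibre assembly and a known modifier of muscular dystrophy in mice, lies on chromosome 7 (27305141 to 27337612, minus strand), 1600144 bases from Tgfb1. It measured 116.2, 155.6, 169.3 and 119.8 CPM in WT and 131.5, 107.8, 95.5 and 111.7 CPM in KL-/-. WT was spread more widely than KL-/-, and only KL-/- replicate 1 entered the WT range. The log2 fold change was -0.33 (SE 0.138, 95% interval -0.64 to -0.019, adjusted p = 0.135). No library left out brought it past the threshold, with adjusted p from 0.0911 to 0.312.

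Ltbp3, which binds latent TGF-beta and is known for its part in bone and tooth growth, lies on chromosome 19 (5740904 to 5758532, plus strand). WT libraries averaged 83.6 ± 3.76 CPM and KL-/- libraries 80.8 ± 3.09 CPM, with a log2 fold change of -0.048 (95% interval -0.17 to 0.077, adjusted p = 0.583). Ltbp2, a microfibril protein that does not bind latent TGF-beta, lies on chromosome 12 (84783212 to 84876495, minus strand), 1180247 bases from Tgfb3. It had 12, 23, 21 and 15 counts in WT and 27, 3, 22 and 9 counts in KL-/-, and a difference was not detectable at this depth (log2 fold change -0.24, 95% interval -1.33 to 0.86, adjusted p = 0.770). A gene annotated on the opposite strand overlaps part of its exons. The sign of its log2 fold change turned, to 0.049, without KL-/- replicate 2.

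Levels of different genes were compared as CPM per kilobase of exon. The WT order was Ltbp4 (25.1 ± 4.70), Ltbp3 (16.1 ± 0.725), Tgfb3 (13.4 ± 0.649), Tgfbr2 (10.3 ± 1.35), Tgfb2 (7.73 ± 0.792), Tgfb1 (5.24 ± 0.547), Tgfbr3 (4.61 ± 0.512), Ltbp1 (2.16 ± 0.294) and Ltbp2 (0.1095 ± 0.0401). In WT only the neighbours Tgfb1 and Tgfbr3 had overlapping ranges over the 4 libraries. In KL-/- Tgfbr3 (4.85 ± 0.440) stood above Tgfb1 (3.95 ± 0.850), with ranges that overlapped, and those of Tgfb3 and Tgfbr2 overlapped as well. Per kilobase, Ltbp4 was above 84% of all genes in WT, and Ltbp2 was above 0.382%.

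Within each library the share of a gene among its family does not depend on scaling. Tgfb3 made up 50.8 ± 2.81% of the ligand level per kilobase in WT, followed by Tgfb2 (29.3 ± 2.59%) and Tgfb1 (19.9 ± 1.34%). In KL-/- the Tgfb1 share was 17.2 ± 2.35%, with a range of 15.4 to 20.7% that overlapped the WT range of 17.9 to 20.6%. Ltbp4 made up 57.4 ± 3.53% of the binding protein level in WT and 53.3 ± 3.34% in KL-/-, and Ltbp3 made up 37.4 ± 3.58% and 41.9 ± 3.16%. The ratio of the summed binding proteins to the summed ligands was 1.65 ± 0.182 in WT and 1.64 ± 0.0581 in KL-/-.

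**Figure D3:**
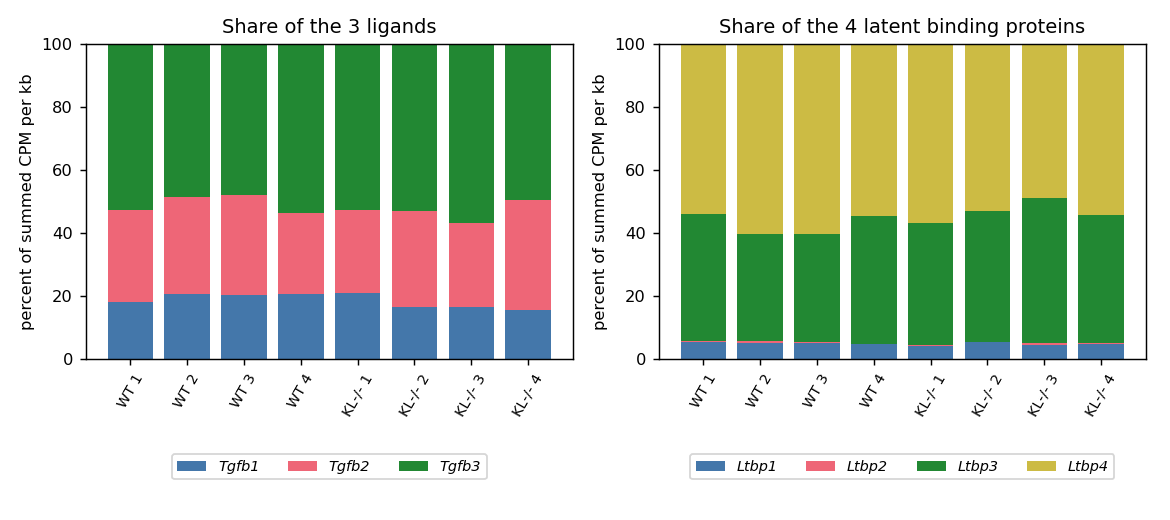
Share of each gene, in percent of the level per kilobase, within the 3 ligands and within the 4 latent binding proteins for each of the 8 libraries. Tgfb3 is the largest share of the ligands and Ltbp4 of the binding proteins, and the WT and KL-/- libraries overlap.

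With genotype means removed, 27 of the 36 pairs among the 9 genes had a Pearson r above 0 over the 8 libraries. The highest was Tgfbr3 with Ltbp1 (r = 0.940) and the lowest Tgfb2 with Tgfb3 (r = -0.605). Among the other 11903 genes compared, the closest to Tgfb1 were Zfp623 (r = 0.974) and Pi16 (r = 0.966), those to Tgfb2 were Coq6 (r = 0.980) and C1qtnf2 (r = 0.975), and those to Tgfb3 were Tacc2 (r = 0.970) and Vprbp (r = 0.968). These are descriptions of 8 libraries that share depth and dissection. The closest genes were picked as the highest of 11903 values of r, a selection that by itself gives high values. Whether they vary together with the ligands beyond that was not tested, and other gene pairs were not counted.

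Other genes of the pathway were read from 5 lists, with 88 distinct genes counted, of which 4 rose and 11 fell in KL-/-, where 7.35% of all genes were called higher and 6.67% lower. None of the 8 other receptors and co-receptors passed the test. Tgfbr1, the type I receptor, measured 36.3 ± 1.66 CPM in WT and 39.8 ± 3.90 CPM in KL-/- (log2 fold change 0.13, SE 0.0788, adjusted p = 0.274).

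Of 19 activators and convertases of the latent complex, 3 fell and none rose (15.8%, against 14.0% of all genes called). Itgav, the integrin subunit that binds the propeptide of latent TGF-beta, measured 42.9 ± 4.29 CPM in WT and 29.2 ± 4.36 CPM in KL-/- (log2 fold change -0.56, SE 0.112, adjusted p = 0.0144). Its partner Itgb6 fell by 0.93 on the log2 scale (adjusted p = 0.0283), and the serine protease Htra1 fell by 0.84 (adjusted p = 0.0415). Itgav kept its call without each of the 8 libraries, while Itgb6 and Htra1 each kept theirs in 2 of 8. Furin, the convertase that cuts the propeptide, had a log2 fold change of 0.25 (adjusted p = 0.0513).

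Of 21 microfibril and elastic fibre partners, on which latent complexes are deposited, 6 fell and none rose (28.6%, against 14.0% of all genes). Efemp1, an elastic fibre protein, fell by 1.35 (SE 0.280, adjusted p = 0.0159), and fibrillin-1, Fbn1, fell by 1.37 (SE 0.342, adjusted p = 0.0295). Dcn, the proteoglycan decorin that binds TGF-beta, fell by 0.94 (adjusted p = 0.0305). Emilin1, Loxl1 and Emilin2, which shape or cross-link elastic fibres, fell with log2 fold changes of -0.89, -0.88 and -1.23. Efemp1 was called without each of the 8 libraries, and the other 5 in 3 of 8. Markers of fibroblasts and fibro-adipogenic progenitors moved with these genes, with 4 of 10 lower, Dcn among them, and summed levels of 1416 to 3818 CPM in WT and 700 to 1738 CPM in KL-/-. Tenocyte markers had 2 of 7 lower (194 to 240 CPM against 68.7 to 156 CPM) and macrophage markers 2 of 9 lower (64.3 to 135 CPM against 45.9 to 79.9 CPM). No marker of these lists was at 0 in any library, and their part in the result was not tested.

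Among 19 SMADs and regulators, Smad4 rose and Smad3 and Hipk2 fell (15.8% called, against 14.0% of all genes). Smad3, which carries the signal from the receptor, measured 179.8, 176.5, 165.8 and 169.5 CPM in WT and 131.7, 106.5, 147.3 and 127.0 CPM in KL-/-. Every KL-/- library was below every WT library (log2 fold change -0.43, SE 0.0904, adjusted p = 0.0165), and the call held without each of the 8 libraries. Smad4, the partner shared by all SMAD signals, measured 62.1, 59.6, 56.5 and 58.7 CPM in WT and 82.2, 64.8, 79.9 and 71.3 CPM in KL-/- (log2 fold change 0.33, SE 0.0801, adjusted p = 0.0273). All KL-/- libraries were above WT, but the call was lost with library totals (adjusted p = 0.0921). Hipk2, a kinase that binds SMAD proteins, fell by 0.60 (adjusted p = 0.0171). Hipk2 kept its call in 6 of the 8 fits with a library left out and Smad4 in 2 of 8. Without KL-/- replicate 3, which leaves 1 batch date, 3 list genes were called, Itgav, Efemp1 and Smad3.

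Of 27 genes known to respond to TGF-beta, 3 were called higher and none lower (11.1%, against 14.0% of all genes), with a list median of -0.10. The log2 fold change was below 0 for 18 of the 27, against 52.4% of all genes. Tnc and Fn1 had log2 fold changes of -1.59 and -1.07 but were not called (adjusted p = 0.0682 and 0.0831). Summed levels of the list were 1520 to 4202 CPM in WT and 1284 to 2122 CPM in KL-/-. Ctgf, a matricellular protein, measured 16.1, 15.2, 12.2 and 10.97 CPM in WT and 22.1, 17.2, 20.1 and 23.97 CPM in KL-/-. The groups did not overlap (log2 fold change 0.62, SE 0.143, adjusted p = 0.0238), and the call held in 4 of the 8 fits with a library left out. Tagln, a smooth muscle actin-binding protein, rose by 0.52 (adjusted p = 0.0394) and Cdkn1a, a cell cycle inhibitor, by 0.84 (adjusted p = 0.0457), and each kept its call in 1 of those 8 fits. With library totals Tagln and Cdkn1a were no longer called (adjusted p = 0.0798 and 0.0582), and 1 gene of the list was higher (Ctgf) and 1 lower (Tnc). Genes annotated on the opposite strand overlap 55.3% of the exon bases of Tagln and 22.5% of those of Ctgf.

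**Figure D4:**
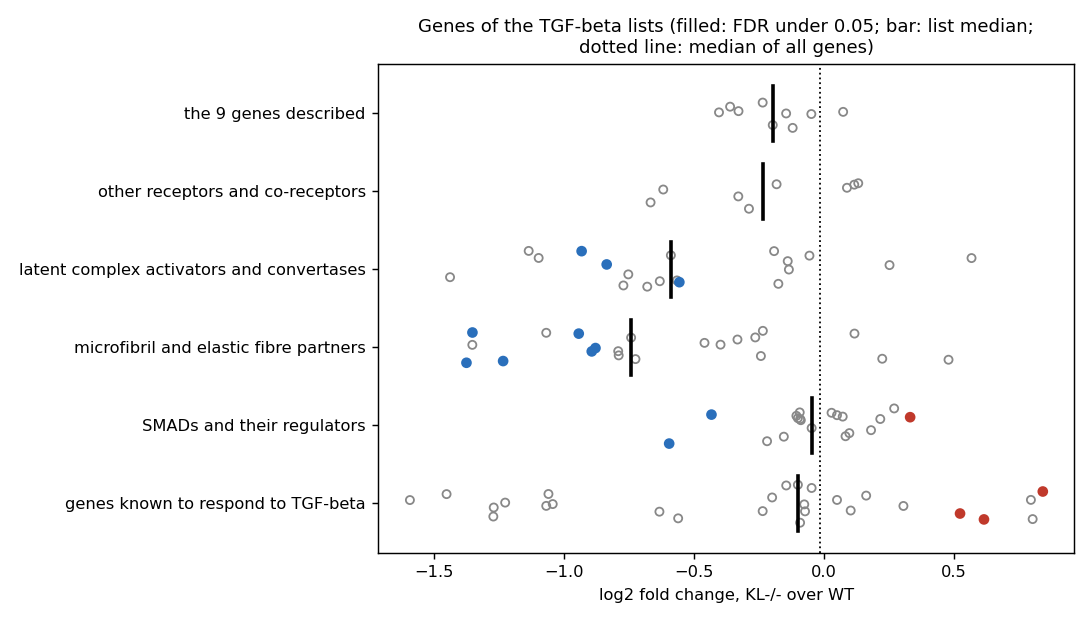
Log2 fold change (KL-/- over WT) of every counted gene in the 9 genes and in each pathway list, with genes past an FDR of 0.05 filled, blue where lower and red where higher, bars at list medians and a dotted line at the median of all genes. The microfibril partners hold 6 lower genes of 21, and none of the 9 genes passes.

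The scaling moved the median of all genes from -0.016 with TMM to -0.13 with library totals, and the share of called genes that were higher from 52.4% to 18.8%. With library totals 4 of the 9 genes were called lower, Tgfb1, Tgfb2, Tgfb3 and Ltbp1, against 16.9% of all genes called lower. All 9 log2 fold changes were then below 0, against 70.4% of all genes. A change of scaling shifts all genes nearly alike, so values relative to the median of all genes barely move by construction. For Tgfb1 that value was -0.39 under both scalings, and for Tgfbr3 it was 0.090 with TMM and 0.088 with library totals.

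**Figure D5:**
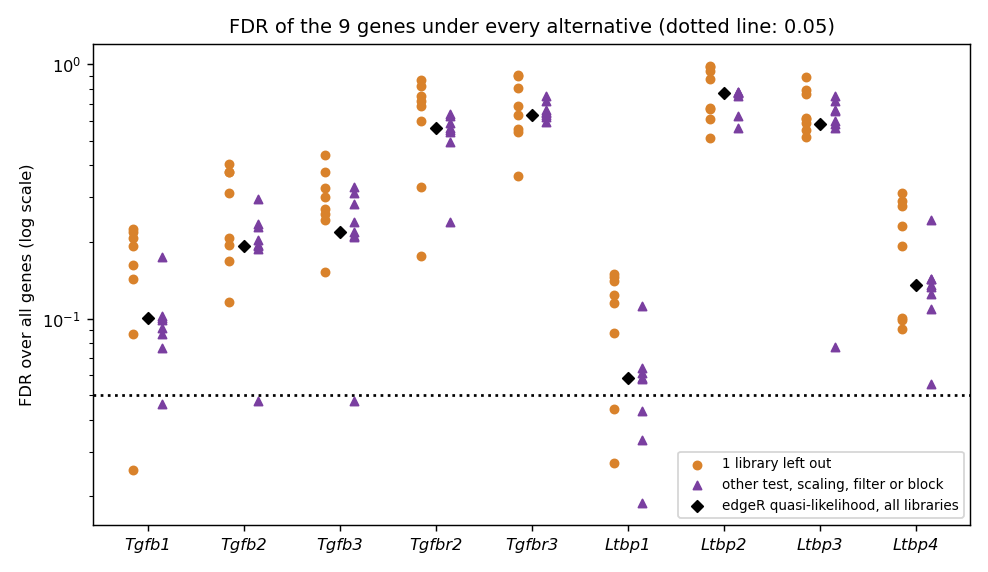
Adjusted p of each of the 9 genes under each alternative analysis, on a log axis, with circles for 1 library left out, triangles for the other alternatives, diamonds for the edgeR quasi-likelihood test on all libraries and a dotted line at 0.05. Ltbp1 passes in 5 of 16 alternatives and Tgfb1 in 2 of 16, and Tgfb2 and Tgfb3 pass in 1 each. The fit without a filter is among the 16 and repeats the main fit.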

How the data were processed

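RNA from whole TA muscle was sequenced, as mRNA libraries in the study's methods and as total RNA in the sample records. The submitters' processing notes name FastQC, STAR, featureCounts, edgeR and mm10, and the annotation version and use of strand are not given in the sources used here. The authors deposited whole-number read counts per gene, not normalized and restricted to expressed genes.

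Sample titles gave the genotype and the replicate number. Genotype was the sole term of a model fitted by edgeR 4.0.16 (R 4.3.3) after its default filter and TMM scaling. Each gene was tested by quasi-likelihood, and p-values were adjusted by Benjamini and Hochberg's method over all 12551 genes. Standard errors and 95% intervals came from the same fit. Log2 CPM used a prior count of 2. With 20860262 to 29273758 counts per library, 3 counts correspond to 0.105 to 0.143 CPM. Levels between genes were divided by the deposited exon length. Promoters are from RefSeq on GRCm38.p6. Alternatives were DESeq2 1.42.0, limma 3.58.1 with voom, the likelihood ratio test, RLE factors, library totals, other filters, a replicate block and each library left out. Leaving out KL-/- replicate 3 is also the comparison within 1 batch date. The tests were checked on simulated data.

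The 9 genes, the lists and the tests were chosen with earlier results of these data known. Named genes are the 9, from each list those past the threshold up to the 6 with the lowest FDR, Tgfbr1 and Furin, and for each ligand the most similar genes with a mean log2 CPM of at least 0. Tnc, Fn1 and the single cell type markers named were picked by their values. Nothing beyond the sample records says how the replicates relate, so p-values measure the spread between these samples.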

Additional observations from a re-analysis of the deposited data

Results flagged for a closer look

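Of 56 sets of 4 libraries checked for 1 library far from the rest, 2 passed Dixon's critical value at the 95% level, where chance gives about 5% of sets. WT replicate 1 had a Tgfb1 share of 17.9% of the ligand level per kilobase, against 20.3 to 20.6% in the other WT libraries. WT replicate 4 had summed myofibre markers of 145965 CPM, against 163700 to 165688 CPM in the others.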

How the results depend on the processing

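The count of all genes called (1759) was 671 with a replicate block and ran from 762 without KL-/- replicate 3 to 2755 without KL-/- replicate 2. Of the 9 genes, 0 were called, 1 with DESeq2, 1 with the likelihood ratio test and 4 with library totals, and 0 to 1 with 1 library left out (1 each without WT replicate 4, KL-/- replicate 1 and KL-/- replicate 2). Of the pathway list genes, 15 were called, 24 with DESeq2, 25 with the likelihood ratio test, 24 with library totals, 7 with the replicate block, and from 3 without KL-/- replicate 3 to 22 without KL-/- replicate 2. The sign of the log2 fold change turned for Tgfbr3 with library totals (-0.045), which moved the median of all genes from -0.016 to -0.13. It turned as well for Ltbp2, which ran from -0.57 without KL-/- replicate 1 to 0.049 without KL-/- replicate 2. The cause for Ltbp2 was not tested. The other 141 log2 fold changes of the 9 genes under alternatives kept their direction. Those without a filter repeat the main fit, because the default filter removed no gene. Ltbp2 has no value under the filter of 10 counts in every library. Same-numbered libraries correlated at -0.146, 0.181, -0.368 and 0.0170 in their deviations from the genotype means. These values show no strong shared deviation but cannot tell whether the numbers pair the mice, for instance by litter. The block is therefore an alternative only.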

Other observations

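Markers of Schwann cells, the glia that ensheathe motor axons, had 3 of 6 higher in KL-/-, with summed levels of 52.7 to 93.8 CPM in WT and 97.9 to 119 CPM in KL-/-. Of all genes 14.0% were called, 7.35% higher and 6.67% lower, and 1 of 8 markers is 12.5%. Endothelial markers had 1 of 8 lower, Kdr, the main receptor for VEGF. Smooth muscle and pericyte markers had 1 of 8 higher, Tagln. Adipocyte markers had 1 of 3 higher and myofibre markers 1 of 8 higher, and with library totals these calls and that of Tagln were lost. The 1 red blood cell marker counted did not pass the test.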
